A study of Rattus norvegicus with 12 samples.

Results

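The imprinted Dlk1-Dio3 miR cluster was followed in extracellular vesicles (EVs) isolated from rat serum after Achilles tendon injury. Members were the rows of the miR count table whose miR number is one of 43 numbers assigned to this cluster, and 39 miRs met that rule, from 27 of the numbers, while the 387 other miRs of the table did not. The EVs came from female Wistar rats, 12 weeks old and labelled wild type, all of which had a needle injury to the left Achilles tendon. Treated rats received intraperitoneal rapamycin, an inhibitor of the kinase mTOR, at 2 mg per kg daily, which came to 5 doses in the day 7 group and 19 in the day 21 group. Control rats were given equal volumes of vehicle on the same schedule, a solution of polyethylene glycol and TWEEN 80 in water. The rapamycin was first dissolved in dimethyl sulfoxide, which the study does not name as part of the vehicle. Each combination of treatment and timepoint was represented by 3 animals with 1 library each, and serum from uninjured rats was not part of the design. The sample labels name tendon as the tissue, whereas the design text and the methods describe EVs from serum. These were isolated by size exclusion chromatography. The study cautions that this step by itself may fall short of isolating EVs, and that low volumes prevented their full characterisation. The miRs counted may therefore not all have come from EVs.

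The Dlk1-Dio3 region is imprinted in placental mammals. The protein-coding genes Dlk1, Rtl1 and Dio3 are expressed from the paternal chromosome, whereas the noncoding transcripts Meg3, Rian and Mirg, and with them the miRs, come from the maternal chromosome. These miRs are abundant in the embryo, the placenta and the brain, and their level falls after birth in many other tissues. Among its miRs, miR-127, miR-136, miR-431 and miR-434, lie antisense to Rtl1, and they can direct cleavage of its mRNA.

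Mature sequences were found for 37 of the 39 members in the RefSeq table for the GRCr8 build, and all 37 lay on the plus strand of chromosome 6. They came from 29 precursors and spanned 258 kb, at chr6:134321438-134579527 in GRCr8. A gap of 196 kb between miR-341 and miR-379 split them into an upstream block of 6 precursors and 10 members, which holds the Rtl1-antisense miRs, and a downstream block of 23 precursors and 29 members. The most counted members with a RefSeq sequence are shown to make plain how different their sequences are, together with miR-376c-3p as a relative of miR-376a-3p, with the seed (bases 2 to 8, which pair with target mRNAs) in capitals.
miR-127-3p: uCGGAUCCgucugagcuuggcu
miR-434-3p: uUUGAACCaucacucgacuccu
miR-136-3p: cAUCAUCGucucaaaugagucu
miR-341: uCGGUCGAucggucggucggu
miR-411-5p: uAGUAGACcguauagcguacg
miR-382-5p: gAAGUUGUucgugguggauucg
miR-541-5p: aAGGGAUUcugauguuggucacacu
miR-409a-3p: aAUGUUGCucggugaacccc
miR-376a-3p: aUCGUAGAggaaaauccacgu
miR-376c-3p: aACAUAGAggaaauuucacgu
miR-487b-3p: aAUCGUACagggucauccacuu

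The 37 matched members carried 37 distinct seeds, so no 2 members could be grouped by a shared seed. The only member whose seed was found in another miR of the table was miR-329-3p, with 4 counts, which shares ACACACC with miR-362-3p, with 86 counts. Reads had been assigned to mature miRs with 1 mismatch allowed, and the closest pair of members, miR-379-3p and miR-411-3p, differed by 3 edits, with 1 count for each. The relatives miR-376a-3p and miR-376c-3p differed by 4 edits. The sequence of miR-341 holds 4 copies of UCGG, and of the 385 table miRs with a RefSeq sequence it was the only one with 3 or more copies.

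The cluster was scarce in these EVs. Its 39 members took 395 of the 444717 miR counts in the 12 libraries, or 0.0888%. The median member had 4 counts over all libraries against 30.5 for the median miR, and the most counted members ranked 192 among all miRs of the table. In all, 30 members had under 10 counts and 7 had a single count. No member was detected in every library, and the most widely detected, miR-127-3p, had a count in 8 of 12. A member at 0 in a library was below what that depth can show and cannot be called absent.

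Of the 12 libraries, 2 stood apart. These were vehicle day 7 replicate 1 and rapamycin day 7 replicate 2, which are also the libraries that the study's table of reads by RNA class does not list. The miR total was 95834 and 51431 counts in them and ran from 16327 to 51391 in the 10 listed libraries. The number of miR counts per spike-in calibrator count was 12.8 and 5.53 in them and ran from 0.686 to 1.58 in the others. A figure legend of the study counts 10 samples as included in its miR analyses. The 2 libraries that stood apart were thus apparently left out of those analyses. The legends of its tables of differentially expressed miRs nevertheless give the full number of animals per group. Results are therefore given for all 12 libraries, which the main fits used, and for the 10.

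At day 7 the members' share of miR counts was 0.210% in vehicle replicate 1 (201 counts, 95% Wilson interval 0.183 to 0.241%), 0.0707% in replicate 2 (30 counts) and 0.0136% in replicate 3 (7 counts). In the rapamycin libraries at day 7 it was 0.0246% in replicate 1 (8 counts), 0.167% in replicate 2 (86 counts, interval 0.135 to 0.206%) and 0.0582% in replicate 3 (13 counts). At each treatment 1 library thus lay far above the other two. At day 21 the share in vehicle replicates 1, 2 and 3 was 0.0405%, 0.0348% and 0.0399%, from 13, 10 and 10 counts. With rapamycin at day 21 it was 0.0245% in replicate 1 (4 counts) and 0.0572% in replicate 2 (13 counts), and replicate 3 had 0 of 23822 counts, which allows a share of up to 0.0126%. The intervals and limits cover counting error only, since the reads carry no molecular identifiers and cannot be counted as separate molecules. The intervals of the 2 libraries that stood apart started at 0.135% or above, and those of the 10 others ended at 0.101% or below.

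**Figure D1:**
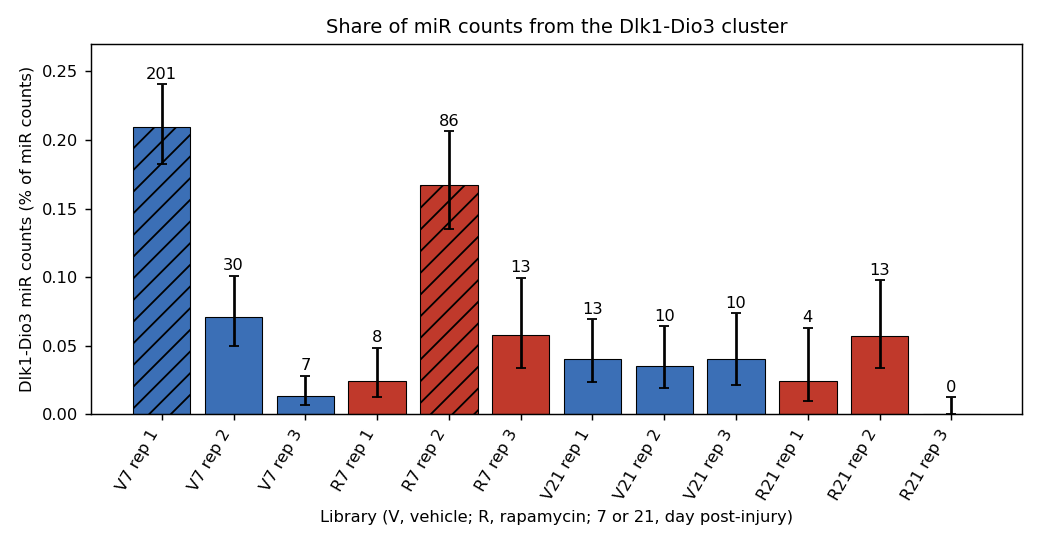
Share of miR counts that fell on the 39 Dlk1-Dio3 miRs (y axis, percent) in each library (x axis). Blue bars are vehicle and red bars rapamycin, hatched bars are the libraries not listed in the study's read table, error bars are 95% Wilson intervals (for the library at 0, the limit that 3 counts give) and the numbers are the members' counts. The hatched bars, at 0.210% and 0.167%, stand above all others, which run from 0 to 0.0707%.

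These 2 libraries held 287 of the 395 member counts (72.7%) and 33.1% of all miR counts. Counts in no other library were found for 16 of 39 members (41.0%), as for 61 of all miRs (14.3%). They held 32 of the 39 members between them and 17 in common. A count in any of the 10 listed libraries was found for 23 members and for 365 of all miRs. How many of all miRs the 2 libraries held, between them or in common, was not counted. These numbers of members alone therefore cannot tell a trait of the members from an effect of depth. Over the 10, the members took 108 of 297452 miR counts, or 0.0363%, and no member exceeded 8 counts in any of them.

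Detection rose with depth, so the number of members with at least 1 count was also computed as the number expected at 16327 miR counts, the depth of the shallowest library. In vehicle day 7 replicate 1, 29 members were detected and 15.2 were expected at equal depth. In rapamycin day 7 replicate 2 the numbers were 20 and 13.2. In the 10 listed libraries, 0 to 10 members were detected, and at equal depth 0 to 6.50 were expected. At equal depth the 2 libraries thus remained the highest, with about the same number of members. Over all miRs the expected number at equal depth was 269 and 260 in them and 188 to 226 in the others, a smaller contrast. Members made up 8.19% and 6.31% of the detected miRs in them, against 0 to 3.80% elsewhere.

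**Figure D2:**
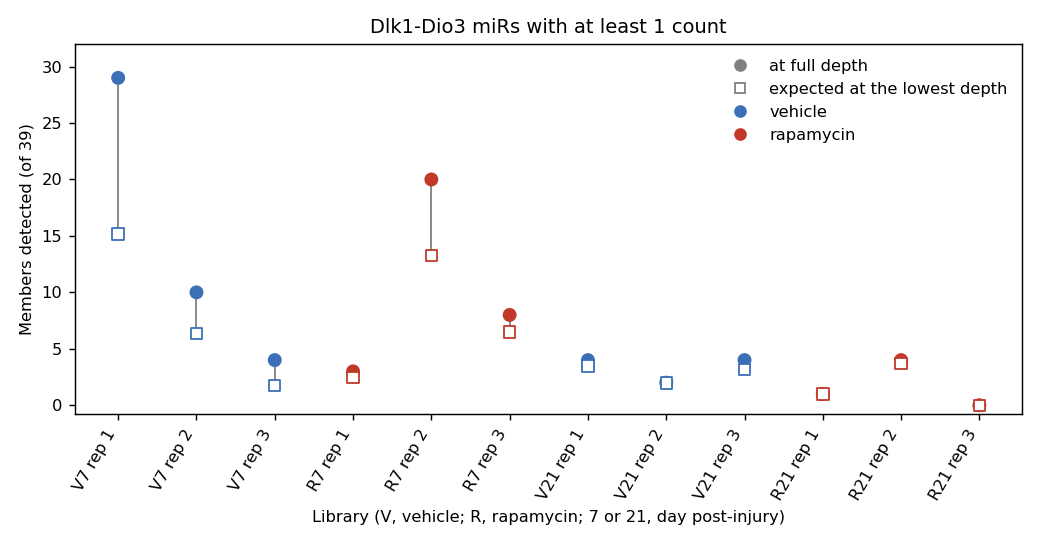
Number of the 39 members with at least 1 count in each library (filled circles) and the number expected at 16327 miR counts (open squares), for vehicle (blue) and rapamycin (red). Vehicle day 7 replicate 1 (29 and 15.2) and rapamycin day 7 replicate 2 (20 and 13.2) are the highest on both measures.

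Among the Rtl1-antisense miRs of the upstream block, miR-127-3p had 44 counts. At day 7 these were 18, 1 and 4 in vehicle replicates 1, 2 and 3 and 2, 11 and 4 in rapamycin replicates 1, 2 and 3. At day 21 the counts were 3, 0 and 0 with vehicle and 0, 1 and 0 with rapamycin. The treatments overlapped at both timepoints. For miR-434-3p, also with 44 counts, the day 7 libraries had 21, 7 and 1 with vehicle and 0, 6 and 2 with rapamycin. At day 21 miR-434-3p had 3, 0 and 0 counts with vehicle and 0, 4 and 0 with rapamycin. For miR-136-3p, with 40 counts, the day 7 libraries had 20, 1 and 0 with vehicle and 2, 12 and 0 with rapamycin. Its 5 counts at day 21 all lay in rapamycin replicate 2. Its other arm, miR-136-5p, was counted only in the 2 libraries that stood apart, with 12 and 5 counts. In the same block, miR-431 had 7 counts, all in vehicle day 7 replicate 1.

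The last member of the upstream block was miR-341. Its 37 counts were 12, 8 and 0 with vehicle and 0, 8 and 1 with rapamycin at day 7. At day 21 they were 0, 0 and 1 with vehicle and 4, 3 and 0 with rapamycin. The 4 counts were the only member counts in rapamycin day 21 replicate 1. Of the miR-341 counts, 54.1% lay in the 2 libraries that stood apart, the lowest share among the 6 most counted members. The share was 61.4% for miR-434-3p and 65.9% for miR-127-3p, and it ranged up to 95.5% for miR-411-5p. Whether these shares differ was not tested.

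In the downstream block, miR-411-5p had 44 counts, of which 32 were in vehicle day 7 replicate 1, 10 in rapamycin day 7 replicate 2 and 2 in rapamycin day 7 replicate 3. The other 9 libraries had none. For miR-382-5p the day 7 counts were 18, 2 and 0 with vehicle and 4, 7 and 0 with rapamycin, and day 21 had none. Both members were thus counted at day 7 alone, mostly in the same libraries. For miR-541-5p, 12 of 14 counts were in vehicle day 7 replicate 1. The relatives miR-376a-3p and miR-376c-3p, whose precursors lie on either side of that of miR-376b, had 6 and 3 counts in vehicle day 7 replicate 1 and 3 each in rapamycin day 7 replicate 2, and miR-376c-3p had 1 more in vehicle day 7 replicate 3. The 9 counts of miR-487b-3p were 3 and 2 in vehicle replicates 1 and 2 and 4 in rapamycin replicate 2, all at day 7. The 6 most counted members were all found in both libraries that stood apart. These libraries held most of the counts by which the 6 were picked, so this says little. In vehicle day 7 replicate 1, miR-411-5p took 15.9% of the member counts (95% Wilson interval 11.5 to 21.6%), and in rapamycin day 7 replicate 2 it took 11.6% (6.44 to 20.1%). For miR-136-3p the shares were 9.95% (6.53 to 14.9%) and 14.0% (8.17 to 22.8%). These intervals overlapped between the libraries.

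Other members of the downstream block did not follow these libraries. The 4 counts of miR-323-3p and the 3 of miR-154-5p all came from vehicle day 7 replicate 2. The 4 counts of miR-412-5p all came from vehicle day 21 replicate 2. Of the 7 counts of miR-369-3p, 5 were in vehicle day 21 replicate 1, and of the 10 counts of miR-409a-3p, 6 were in vehicle day 21 replicate 3. In the upstream block, 6 of the 7 counts of miR-540-3p were in vehicle day 21 replicate 2. In all, 7 members with 3 or more counts had every count in a single library, 3 of them in a listed library. How many of all miRs did so was not counted. With so few counts, this cannot be read as a trait of the members. The neuronal miR-134-5p, which restrains dendritic spine growth, had 2 counts, both in rapamycin day 7 replicate 2.

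**Figure D3:**
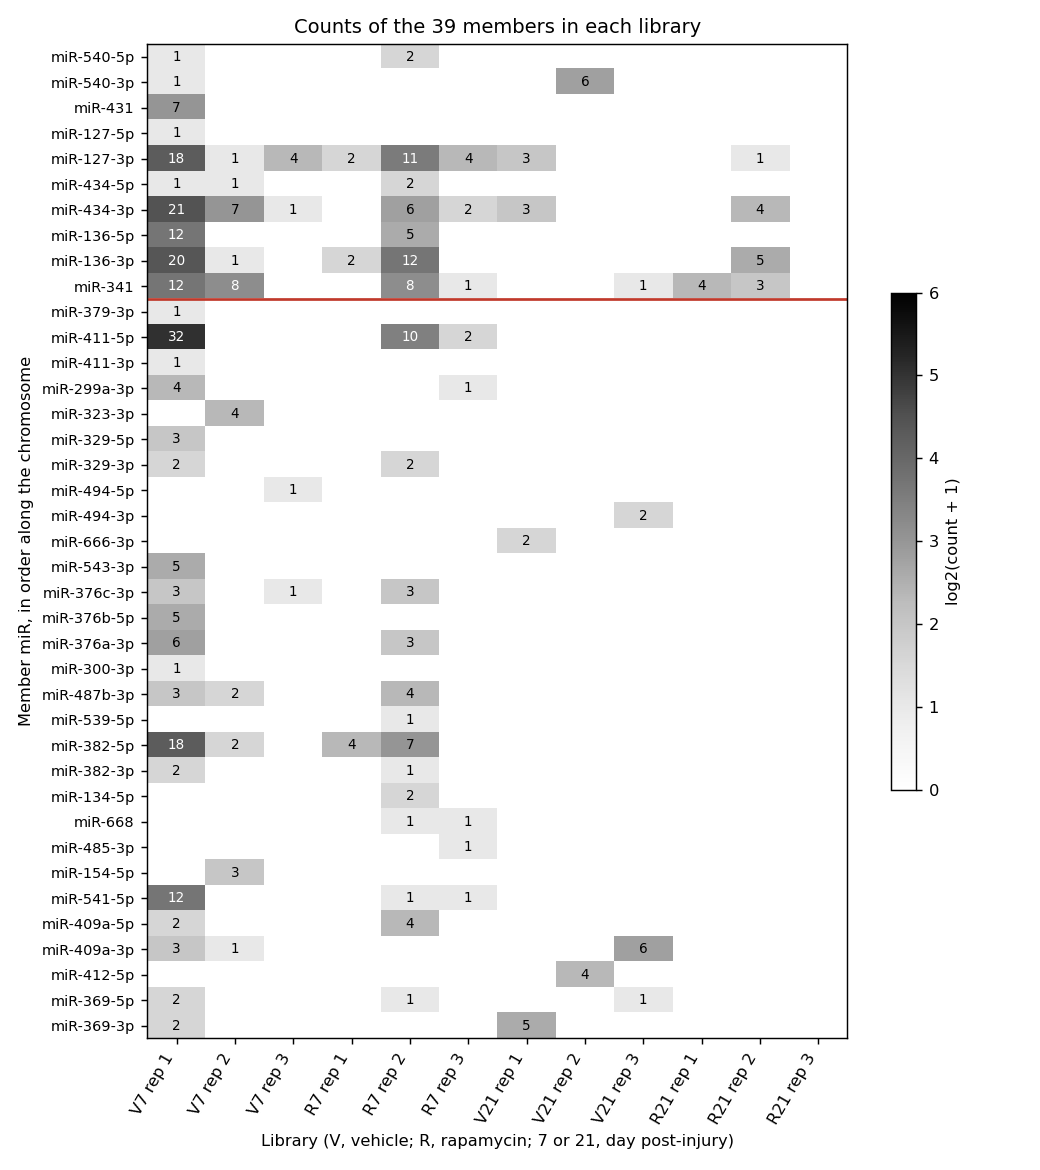
Counts of the 39 members (y axis, in their order along the chromosome, with a red line at the 196 kb gap) in each of the 12 libraries (x axis). Shading is log2(count + 1), cells with no number are 0, and the columns of vehicle day 7 replicate 1 and rapamycin day 7 replicate 2 hold 287 of the 395 counts.

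Both arms were detected for 10 precursors. The 3p arm led for miR-127, with 44 counts against 1 (97.8% of both, exact 95% interval 88.2 to 99.9%), and for miR-434, with 44 against 4 (91.7%, 80.0 to 97.7%). The 5p arm led for miR-411, with 44 against 1 (97.8%, 88.2 to 99.9%), and for miR-382, with 31 against 3 (91.2%, 76.3 to 98.1%). For miR-136 the 3p arm had 40 counts and the 5p arm 17 (70.2%, 56.6 to 81.6%). All 17 counts of the 5p arm lay in the 2 libraries that stood apart. In the 10 listed libraries the 3p arm had 8 counts and the 5p arm 0, so the use of both arms was seen in those 2 libraries alone. The intervals treat reads pooled over libraries as separate draws. In these 5 precursors the leading arm was the higher one in every library with counts, from 3 libraries for miR-411 to 8 for miR-127. The 5 remaining precursors had 3 to 16 counts over both arms, and their intervals included equal use of the arms.

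**Figure D4:**
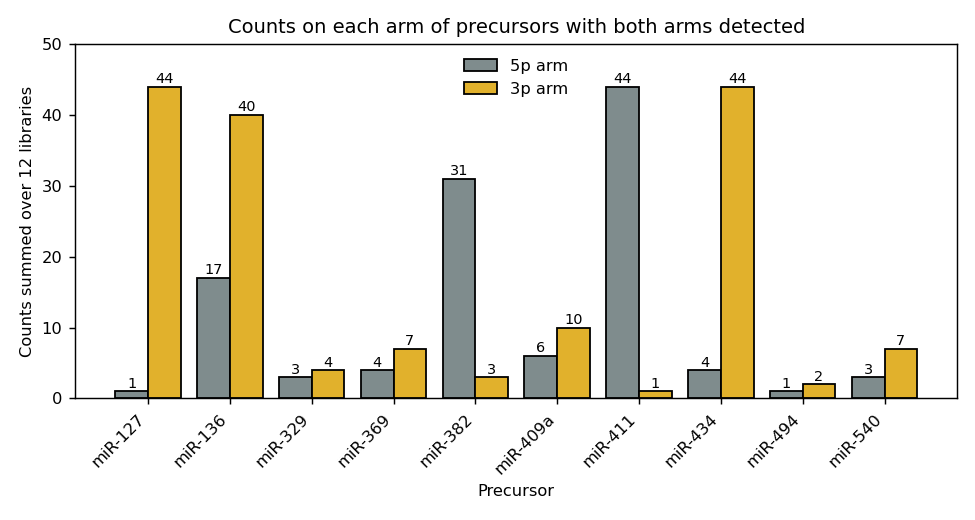
Counts summed over the 12 libraries (y axis) on the 5p arm (grey) and the 3p arm (yellow) of the 10 precursors with both arms detected (x axis). The 3p arm leads for miR-127 and miR-434 and the 5p arm for miR-411 and miR-382, while miR-136 has 17 and 40 counts.

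The first comparison asked whether rapamycin changed the cluster at day 7. The members' share was 0.0980% ± 0.101 (SD, n = 3) with vehicle and 0.0833% ± 0.0746 (SD, n = 3) with rapamycin, so the difference was smaller than the spread within each group. The log2 ratio of rapamycin over vehicle was -0.23, and it changed sign without vehicle replicate 1 (0.98) or rapamycin replicate 1 (0.20). Without the 2 libraries that stood apart it was 0.0422% ± 0.0404 (SD, n = 2) and 0.0414% ± 0.0237 (SD, n = 2). By edgeR's quasi-likelihood test, with p adjusted over all miRs, 0 of 39 members were differentially expressed (DE), as were 0% of all miRs. At an unadjusted p under 0.05 the number was 0 of 39 members, against 1.88% of all miRs, and DESeq2 called 0 members. By default DESeq2 can leave miRs of low count without an adjusted p, here as in the other comparisons. A member left out could not be called, so its 0 adds little. The median log2 fold change was -0.21 over the members and -0.07 over all miRs. In no member did the 3 rapamycin libraries lie on one side of the 3 vehicle libraries at day 7, against 3.52% of all miRs. Such a split needs a count in all 3 libraries of a treatment, which only miR-127-3p and miR-434-3p had. For the other members it could not arise, so the contrast with all miRs reflects low detection. In the 10 libraries, where 23 members had counts, 0 were DE against 0.548% of 365 miRs, and 0 had an unadjusted p under 0.05 against 3.84%. There too no member had treatments apart without overlap at day 7, against 27.2% of all miRs with 2 libraries a group. Again only miR-127-3p and miR-434-3p had a count in both listed libraries of a treatment, so no other member could be apart.

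At day 21 the members' share was 0.0384% ± 0.00311 (SD, n = 3) with vehicle and 0.0272% ± 0.0287 (SD, n = 3) with rapamycin. The rapamycin libraries lay both below and above the vehicle libraries, and the log2 ratio of -0.50 changed sign without rapamycin replicate 3 (0.09) and was -1.65 without rapamycin replicate 2. By edgeR 0 of 39 members were DE at day 21, as were 0% of all miRs, and at an unadjusted p under 0.05 there were 0 members against 2.82% of all miRs. DESeq2 also called 0 members. The median log2 fold change was 0.00 over the members and 0.00 over all miRs. In no member were the treatments apart without overlap, against 4.69% of all miRs. No member had a count in all 3 libraries of a treatment at day 21, so none could be apart, and this says nothing about the treatment. In the 10 libraries 0 of 23 members were DE at day 21, as 0% of 365 miRs, and 0 had an unadjusted p under 0.05 against 4.11%. The blocks of the cluster differed in their counts at day 21, which was noticed after the values were seen and was not tested. The downstream block had 7, 4 and 9 counts with vehicle and 0 counts in each rapamycin library, or 20 of 85855 against 0 of 62885, where 3 counts make 0.00477%. The 20 counts fell on 6 members, with none in more than 1 library. The upstream block had 13 counts with vehicle and 17 with rapamycin.

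With timepoint as a blocking factor, the general effect of the treatment gave 0 DE members of 39, as 0% of all miRs, by edgeR. At an unadjusted p under 0.05 there was 1 member, against 3.52% of all miRs, and DESeq2 called 0. That member was miR-409a-3p, with 3, 1 and 0 counts at day 7 and 0, 0 and 6 at day 21 with vehicle and none in the 6 rapamycin libraries (edgeR unadjusted p = 0.0255, adjusted p = 0.907). Pooled over the 6 vehicle libraries, it stood at 2.05 times a limit of 3 counts over the 6 rapamycin libraries, in CPM. No error was set on the vehicle counts, so this ratio is not a lower bound. Of its 10 counts, 6 came from vehicle day 21 replicate 3. Without that library, a check chosen after seeing the data, vehicle stood at 16.0 CPM, under the rapamycin limit of 17.7 CPM. Labels permuted within timepoint gave a two-sided exact permutation p of 0.2 (adjusted p = 1 over all miRs). That was the smallest p of any member in this test of 400 arrangements. In the 10 libraries 0 of 23 members were DE, against 0.548% of all miRs, and 0 had an unadjusted p under 0.05 against 5.75%. An interaction term asked whether the effect of rapamycin depended on the timepoint, and by edgeR it gave 0 of 39 members, as 0% of all miRs, with 0 at an unadjusted p under 0.05 against 3.29%. DESeq2 gave 0 members as well. In the 10 libraries the interaction gave 0 of 23 members, against 0.274% of all miRs, and 0 at an unadjusted p under 0.05 against 3.56%.

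The cluster was also compared between timepoints. At day 7, 345 of 295977 miR counts (0.117%) fell on members, and at day 21, 50 of 148740 (0.0336%). A count in some library was found for 36 members at day 7 and 11 at day 21, and 28 members (71.8%) had counts at day 7 alone, as did 26.8% of all miRs. Per library the share was 0.0907% ± 0.0797 (SD, n = 6) at day 7 and 0.0328% ± 0.0193 (SD, n = 6) at day 21, so the timepoints overlapped. This contrast rested on the 2 libraries that stood apart. In the 10 libraries the summed miR counts of the timepoints were nearly the same, although they came from 4 libraries at day 7 (mean 37178 counts) and 6 at day 21 (mean 24790), with 58 member counts of 148712 (0.0390%) at day 7 and 50 of 148740 (0.0336%) at day 21. The share per library was then 0.0418% ± 0.0270 (SD, n = 4) and 0.0328% ± 0.0193 (SD, n = 6). Of the 23 members with counts there, 12 were found at day 7 alone, 6 at day 21 alone and 5 at both (21.7%), against 77.0% of all miRs at both. No member exceeded 8 counts in any of these libraries, so whether this split is more than low detection gives was not tested.

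By edgeR with treatment as a block, 0 of 39 members differed between timepoints, against 3.52% of all miRs. At an unadjusted p under 0.05 there were 4 members, or 10.3%, against 14.6% of all miRs, and DESeq2 called 0. Lower at day 21 by that unadjusted edgeR test were miR-411-5p (adjusted p = 0.0782), miR-382-5p (adjusted p = 0.127) and miR-136-5p (adjusted p = 0.314). Pooled over the day 7 libraries, these stood at 7.37, 5.19 and 2.85 times a limit of 3 counts over the 6 libraries of day 21, in CPM. No error was set on the day 7 counts, so these ratios are not lower bounds. The other was miR-412-5p, whose 4 counts came from 1 library of day 21 (edgeR adjusted p = 0.306). In the 10 libraries 0 of 23 members differed, against 0.274% of all miRs, and 0 had an unadjusted p under 0.05 against 5.48%. There miR-411-5p had 2 counts at day 7, below the limit, and miR-136-5p had none. The 6 counts of miR-382-5p, 2 in vehicle replicate 2 and 4 in rapamycin replicate 1, put its pooled day 7 CPM at 2.00 times the limit. The median log2 fold change between timepoints was -1.65 over the members and -0.54 over all miRs in the 12 libraries, and -1.23 over 23 members and -0.05 over all miRs in the 10. These fitted values rest on a prior count wherever a group is at 0. With calibrator counts in place of TMM scaling, which sets the miRs against the spike-ins added to each sample, 7 of 39 members (17.9%) differed between timepoints, against 27% of all miRs.

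Relative to the spike-in calibrators the 2 libraries stood further apart. Vehicle day 7 replicate 1 had 268 member counts per 10000 calibrator counts and rapamycin day 7 replicate 2 had 92.5, whereas the 10 others ran from 0 to 11.2. All miR counts together were raised there too, at 12.8 and 5.53 per calibrator count against 0.686 to 1.58. The further separation was thus not particular to the cluster.

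Other miR groups also stood outside the range of the 10 libraries, the erythrocyte, myeloid and platelet, and liver miRs in both of these libraries, the muscle miRs in vehicle day 7 replicate 1 alone and the endothelial miRs in rapamycin day 7 replicate 2 alone. The 10 striated muscle miRs of the table together took 1.13% of miR counts in vehicle day 7 replicate 1 and 0.115% in rapamycin day 7 replicate 2, against 0 to 0.198% in the others. Of the muscle counts in vehicle day 7 replicate 1, 1026 were on miR-133a-3p, and the heart miR-208a-3p and the skeletal muscle miR-206-3p had 2 and 1 counts there. The muscle miR-1-3p was not raised, with 2 counts there against 5 in vehicle day 7 replicate 3 and 3 in rapamycin day 7 replicate 1. The liver miR-122 took 1.25% and 1.00%, against 0.0209 to 0.989%. The endothelial miR-126a took 2.41% and 3.43%, against 0.959 to 3.18%. In contrast, the erythrocyte miRs (miR-144, miR-451 and miR-486) took 1.82% and 4.71%, against 6.44 to 14.0%, and miR-142 and miR-223 of myeloid cells and platelets took 0.381% and 0.638%, against 1.29 to 2.49%. The only neuronal marker with a row in the table, miR-9a-5p, had 3 and 0 counts in these libraries and 0 to 9 in the others. The part of these cell types in the cluster's counts was not tested. In serum, less EV release by a tissue and less of a miR per EV cannot be told apart.

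**Figure D5:**
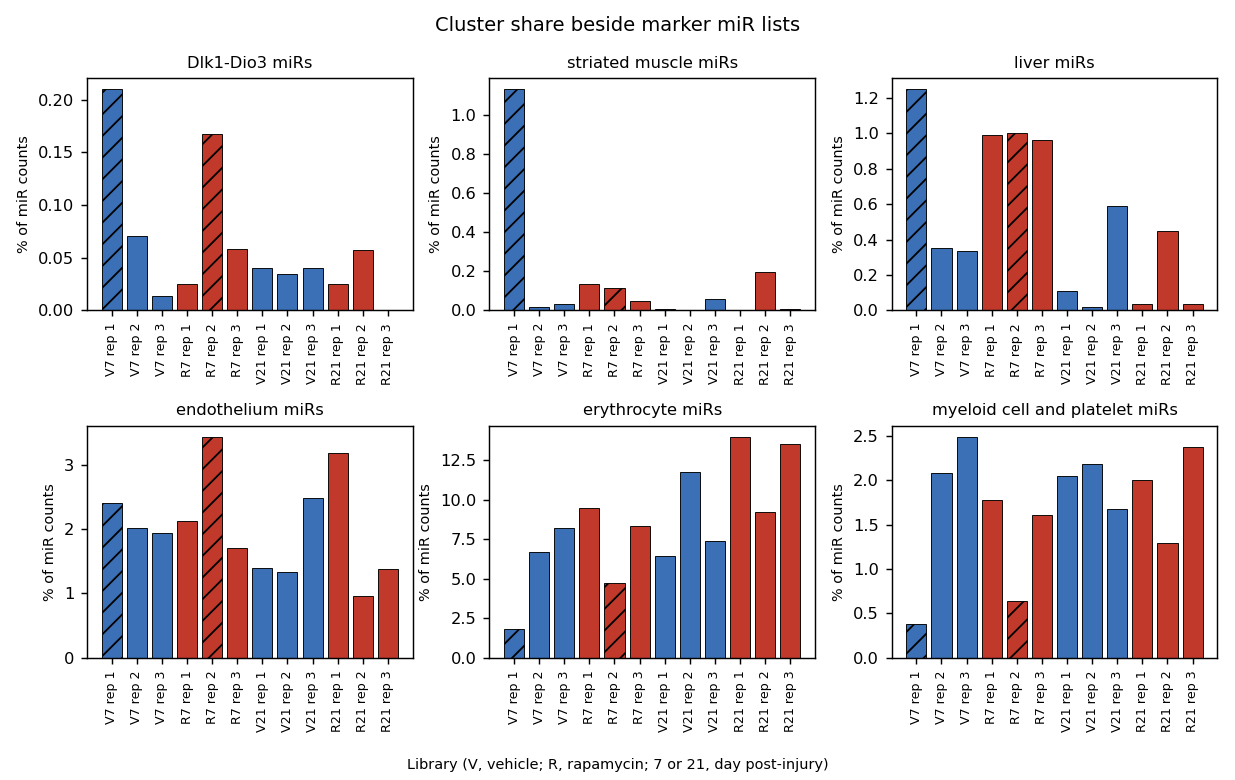
Percent of miR counts (y axes, each panel with its own scale) on the Dlk1-Dio3 miRs and on 5 lists of marker miRs in each library (x axes), with vehicle in blue, rapamycin in red and the libraries not listed in the study's read table hatched. Both hatched libraries are high for the cluster (0.210% and 0.167%) and low for the erythrocyte (1.82% and 4.71%) and myeloid and platelet miRs (0.381% and 0.638%), whereas only vehicle day 7 replicate 1 is high for the muscle miRs (1.13%).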

How the data were processed

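Small RNA from serum EVs of 12 rats was sequenced with spike-ins added before library preparation. The authors trimmed reads with cutadapt 3.3, mapped them with bowtie 1.3.0 to the mRatBN7.2 genome and then to rat miRBase, and deposited raw counts per mature miR (39 members, 387 other miRs and 10 spike-ins) without normalization. Totals of 16327 to 95834 miR counts set the precision: 3 counts stand at 31.3 to 184 CPM. Spike-ins were left out of totals. Here edgeR 4.0.16 (quasi-likelihood test, TMM, R 4.3.3) was fitted to all miRs and 12 libraries with no filter, and p was Benjamini-Hochberg adjusted over all. A mean for each group gave the comparisons at each timepoint and the interaction, and additive models gave the blocked comparisons. Exact permutation used log2(CPM + 1). Expected detection was hypergeometric. DESeq2 1.42.0 was an alternative. The blocked treatment test was tried on simulated data. Recovery was scored on miRs with a mean of 10 or more counts per library. No member has that many, so this does not bear on the members. Members, lists and tests were chosen with earlier results of these data known. Named members were the 10 most counted (11 with a tie) and those with an unadjusted p under 0.05. Others were described by block, arm or seed after their counts were seen. Same-numbered libraries did not deviate together (correlations -0.78 to 0.31 in 6 pairs), so the numbers were not taken as pairs.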

Additional observations from a re-analysis of the deposited data

How the results depend on the processing

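For rapamycin against vehicle at day 7, at day 21, with timepoint as a block, and for the interaction, 0 members were called under each alternative that kept members in the fit, and filterByExpr left none. For day 21 against day 7, 1 member, miR-411-5p, was called with DESeq2 size factors (2.56% of members, against 6.1% of all miRs), with the total miR count as library size (2.56% against 7.04%) and with independent filtering (1 of the 6 members kept, against 9.05% of the miRs kept). With calibrator counts as library size 7 were called (17.9% against 27%). Leaving out each library in turn gave 0 to 1, the 1 arising without vehicle day 7 replicate 2 or replicate 3. The cause of these changes was not tested. A replicate block gave 0 members in each comparison, and it was not used as a pairing. The log2 ratio of the members' share, day 21 over day 7, was -1.47, and -4.11 with calibrator counts as denominator, an alternative chosen after seeing the data, where the 2 libraries that stood apart had the fewest calibrator counts. For rapamycin over vehicle, leaving out 1 library moved the log2 ratio from -1.24 to 0.98 at day 7, where it was -0.23, and from -1.65 to 0.09 at day 21, where it was -0.50. With 108 member counts in 10 libraries, depth limits what any member can show.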

Other observations

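One further miR of the table lay between the outermost members of the cluster, miR-3543, which is antisense to miR-434 and had 1 count, in vehicle day 7 replicate 3. The other imprinted miRs of the table (miR-296, miR-298, miR-335 and miR-483, 5 mature miRs) took 0.0177% of miR counts in vehicle day 7 replicate 1 and 0.0525% in rapamycin day 7 replicate 2, against 0.00311 to 0.0836% in the 10 others. As a sum they thus stayed within the range of the other libraries, where the Dlk1-Dio3 miRs did not. Of their counts, 40.7% lay in these 2 libraries. Single miRs differed in this. Not scaled by depth, miR-335 had 7 and 13 counts in the 2 libraries and 0 to 4 in the others. For miR-298-5p the counts were 9 and 13 against 0 to 10, and for miR-296-5p 1 and 1 against 0 to 6. Neither miR-296-3p nor miR-483-5p had a count in the 2 libraries.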
